A study of Mus musculus with 18 samples.

Results

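The cytosolic ribosomal protein genes are the 86 genes, among 32285 in the matrices, whose symbol starts with Rpl or Rps and a digit, together with Rplp0, Rplp1, Rplp2 and Rpsa. Pseudogene symbols and the S6 kinases were left out. The rule is by name, so it takes in 77 core ribosomal proteins and 9 further genes. Of these 9, Rpl3l, Rpl7l1, Rpl10l, Rpl22l1, Rpl36al, Rpl39l and Rps27l are paralogs, Rps27rt is a retrotransposed copy of Rps27, and Rps19bp1 encodes a nucleolar regulator of the deacetylase SIRT1 that is not a ribosome subunit. There were 52 symbols of the large subunit and 34 of the small subunit.

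The study built a predictor of circadian time and applied it to dermal fibroblasts and immune cells, and for this it collected dorsal skin of wild-type male C57BL/6J mice kept in 12:12 light and dark. Dermis was dissociated to single cells, live cells were sorted, and each of 18 mice gave 1 droplet library, with 3 mice at each of ZT2, ZT6, ZT10, ZT14, ZT18 and ZT22 (zeitgeber time, in hours after lights on). No mouse carried a transgene or received a treatment. Unique molecular identifiers (UMIs, each standing for a captured transcript) were summed per library over the cells of a type, so that the mouse was the replicate. Of 23990 barcodes, 16877 cells were kept, of which 11976 were fibroblasts, 3334 immune cells and 735 muscle cells, while 832 were left unnamed.

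The sums held 2872420 to 33432300 UMIs in fibroblasts and 481549 to 5749420 in immune cells. The 8 immune markers, Ptprc and Tyrobp among them, summed to 122 to 244 per 10000 UMIs in the immune sums and to at most 0.364 in the fibroblast sums. The 8 fibroblast markers, with Col1a1 and Dcn, summed to 798 to 1390 per 10000 in fibroblasts and to 3.52 to 42.7 in immune cells, so the immune sums held some fibroblast RNA. Neutrophil markers in the immune sums ranged from 0.145 to 126.9 per 10000, with 11.2% of the immune UMIs of ZT14 replicate 1 coming from neutrophils, and haemoglobin and Alas2 ranged from 0.137 to 116. Barcodes shared by kept cells of different libraries numbered 36. Member genes were left out of the genes used for clustering.

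Ribosomal proteins assemble with ribosomal RNA in the nucleolus into a small subunit, which decodes the message, and a large subunit, which joins amino acids. Their messages are among the most abundant of a growing cell. In mammals most of them begin with a cytosine followed by a run of pyrimidines, the terminal oligopyrimidine (TOP) tract, through which mTORC1 sets how much of each message is translated. In mouse liver, translation of these messages and ribosome biogenesis are known to vary over the day, while the levels of the messages vary little.

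The bases around the annotated transcript start were searched for such a tract. Among the 66 members with a RefSeq promoter entry (GRCm38.p6), 14 (21.2%) had at their start a C followed by at least 4 bases that were each C or T, on the transcribed strand. Among all 27025 genes of the table, 3.01% did. With the C allowed up to 5 bases before or after the start, 30 members (45.5%) had the run, Rpl22l1 among them, and 21.2% of all genes did. An unbroken C or T run of at least 8 bases that held the start was found for 17 members (25.8%) and for 4.59% of all genes. The E-box CACGTG, which reads the same on both strands and is bound by the core clock activators, lay in the 300-base promoter of 6 of 66 members (9.09%) and of 8.09% of all genes. Windows of 30 bases, 15 before the start and 15 from it on, have the C and T run that holds the start in capitals. They are shown for some members with the largest differences between cell types, for Rps6 and Rps19bp1, and for a near-identical pair.
Rps9 (chr7:3704026-3704055, plus strand): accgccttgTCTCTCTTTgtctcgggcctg
Rplp2 (chr7:141447636-141447665, plus strand): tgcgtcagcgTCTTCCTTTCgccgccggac
Rps6 (chr4:86857353-86857382, minus strand): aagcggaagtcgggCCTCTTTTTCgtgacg
Rplp0 (chr5:115559452-115559481, plus strand): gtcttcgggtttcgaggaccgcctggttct
Rpl39l (chr16:10170213-10170242, plus strand): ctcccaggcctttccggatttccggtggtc
Rpl22l1 (chr3:28805493-28805522, plus strand): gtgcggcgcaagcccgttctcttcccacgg
Rpl36al (chr12:69184053-69184082, minus strand): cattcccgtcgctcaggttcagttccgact
Rps27 (chr3:90213634-90213663, minus strand): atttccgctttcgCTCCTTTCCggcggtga
Rps27rt (chr9:114982725-114982754, minus strand): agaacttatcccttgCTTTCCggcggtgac
Rps19bp1 (chr15:80264292-80264321, minus strand): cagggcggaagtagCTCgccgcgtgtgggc
Rps9, Rplp2, Rps6 and Rps27 had runs of 9 or 10 bases, while Rplp0 and the paralogs Rpl39l, Rpl22l1 and Rpl36al started with G in this annotation. Rps2 and Rpl13, which were lower in immune cells, are not shown and had runs of 4 bases. With the C allowed up to 5 bases from the start, the run was found for 7 of 17 members higher in immune cells. It was found for 6 of 17 lower ones and 17 of 32 not called, against 21.2% of all genes. Over the last 200 bases, toward the end that was counted, 4 protein-coding transcripts of Rps27 shared an unbroken run of 55 to 171 bases with Rps27rt (GENCODE M21), so reads of the pair may have been assigned to either gene, and the values of both are uncertain. The table holds no entry for Rps29 and Rps20.

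Summed over all cells of a type, ribosomal protein transcripts made up about the same part of the UMIs in both cell types. In fibroblasts the members summed to 1429.95 ± 132 UMIs per 10000 (mean ± SD, n = 18 libraries), with a lowest value of 1137 in ZT2 replicate 1 and a highest of 1634 in ZT14 replicate 3. In immune cells they summed to 1469.78 ± 180.03, from 1139 in ZT14 replicate 1 to 1818 in ZT18 replicate 3. Immune cells were above fibroblasts of the same library in 10 of 18 libraries, and the difference was 39.8 ± 154 per 10000. The sign depended on which cells were weighed: with the mean over cells in place of the sum, immune cells were below fibroblasts in 15 of 18 libraries. The mean difference was then -121 per 10000. The immune sum also joins clusters of very unlike levels, which are given below.

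**Figure D1:**
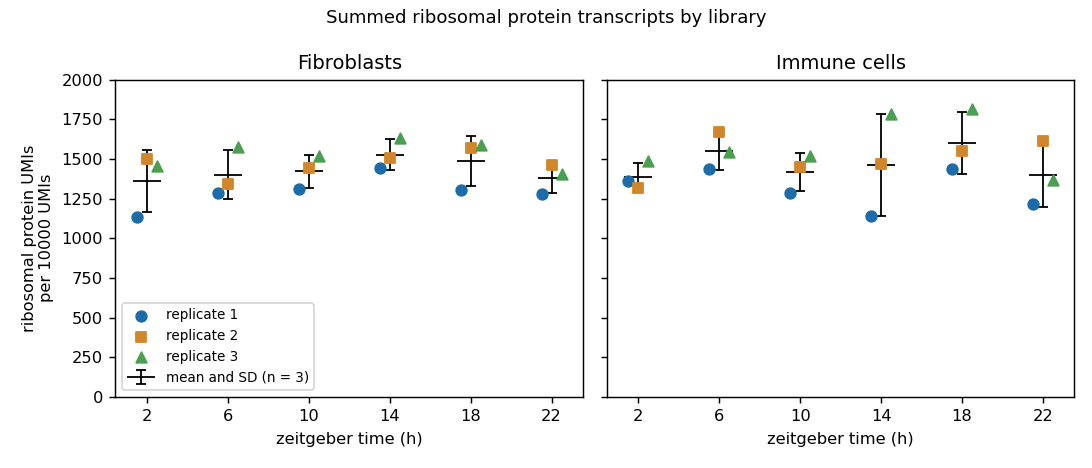
Summed UMIs of the 86 ribosomal protein genes per 10000 UMIs (vertical axis, from 0) against zeitgeber time in hours, in fibroblasts and immune cells. Each point is 1 library, coloured by replicate number, and the bars give the mean and SD of 3 libraries; replicate 1 was the lowest in fibroblasts at all 6 times, where the libraries ranged from 1137 to 1634.

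The balance between small and large subunit transcripts was tighter than the sum. Small subunit genes held 44.4% ± 0.261 of the member UMIs in fibroblasts (range 43.9% to 44.9% over 18 libraries). In immune cells they held 45.8% ± 0.445 (45.0% to 46.5%), so the ranges of the cell types did not overlap. The small subunit gene Rps29 alone was at 43.4 ± 3.77 UMIs per 10000 in fibroblasts and 78.2 ± 7.79 in immune cells. All small subunit genes summed to 635 ± 58.2 and 673 ± 81.6. The shift therefore cannot be read as one of the subunit as a whole, and the share without Rps29 was not computed. Counting at the 3′ end gives at most 1 UMI per captured transcript and is not scaled to length. On that scale 69 members had a mean above 10 UMIs per 10000 in fibroblasts and 68 in immune cells, and no core member was near 0. The members with the most UMIs over both cell types were Rps29, Rplp1, Rpl13, Rps24 and Rpl37a. Rps29, a zinc-binding protein of the small subunit head, was at 43.4 ± 3.77 UMIs per 10000 in fibroblasts, and Rplp1, an acidic protein of the large subunit stalk, was at 34.8 ± 3.52. Those with the fewest were Rpl10l, Rpl3l, Rps19bp1, Rpl39l and Rpl7l1. The 5 highest means made up 12.4% of the member UMIs in fibroblasts and 15.2% in immune cells.

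Few members had a called 24 h rhythm, and which of them were called depended on the fit. A cosine and a sine with a period of 24 h were fitted to the counts of each gene in edgeR, their joint quasi-likelihood p was adjusted by Benjamini-Hochberg over all genes, and a gene was called at an adjusted p under 0.05. In fibroblasts 13.6% of the 12751 genes tested were called, but only 1 of the 84 members tested, and that was Rps19bp1. As it does not encode a ribosome subunit, no core member was called in this fit. At an unadjusted p under 0.05 there were 5 members, Rps19bp1, Rps27rt, Rpl35, Rpl39 and Rpl41, against 29.5% of all genes. In immune cells 8 of 10744 genes (0.0745%) were called and 0 of 83 members, with 0 at an unadjusted p under 0.05 (7.76% of all genes). DESeq2 called 0 members there (0.308% of all genes). JTK_Cycle, another rhythm test, gave 0 members a p under 0.05 (2.3% of all genes). Its p was corrected for the 18 combinations of period and phase tried, but not over genes. The 0 called by edgeR and DESeq2 is near the share of all genes. Rpl3l and Rpl10l had too few UMIs to be tested in either cell type, and Rpl39l in immune cells.

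With the collection day as a replicate block, 3 members were called in fibroblasts, Rps19bp1, Rpl39 (adjusted p = 0.0392 by edgeR) and Rpl18 (0.0487), against 14.4% of all genes, and 16 had an unadjusted p under 0.05, against 30.2%. In immune cells the block left 0 members called and 1 at an unadjusted p under 0.05 (7.57% of all genes). Without ZT10 replicate 2, Rps19bp1 and Rpl41 (adjusted p = 0.0373 by edgeR) were called in fibroblasts. With member UMIs as library size, which gives each gene relative to the other members, 0 members were called in fibroblasts (8.38% of all genes) and 0 in immune cells (0.0558%), with an adjusted p of 0.0515 and an amplitude of 0.21 for Rps19bp1. With both the block and this scaling, Rps19bp1 alone was called in fibroblasts, with an adjusted p of 0.0299 by edgeR and an amplitude of 0.21. Shares of all genes are not given for this fit or for the one without ZT10 replicate 2. With the zeitgeber time as a factor, 1 was called in fibroblasts, Rps19bp1 (8.84% of all genes), and 0 in immune cells (0.0558%). JTK_Cycle gave a p under 0.05, not adjusted over genes, for 1 of 86 members in fibroblasts, against 7.83% of all genes.

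The fitted amplitudes were small. The median amplitude (log2 scale, from the mean to the peak) was 0.07 over the members and 0.13 over all genes tested in fibroblasts, and 0.06 and 0.16 in immune cells. An amplitude under 0.1 was fitted for 69 of 84 members in fibroblasts (37.1% of all genes) and for 71 of 83 in immune cells (26.8%). A fitted amplitude cannot fall below 0 and grows with noise. Members were not compared with genes of similar level, so these values do not show that members are flatter than such genes. The upper 95% limit of the amplitude, from a jackknife over libraries, was under 0.25 for 76 of 77 core members in fibroblasts, with 0.27 as the highest. In immune cells it was under 0.25 for 53 of 77, with 0.31 as the highest, so the limits were wider there.

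**Figure D2:**
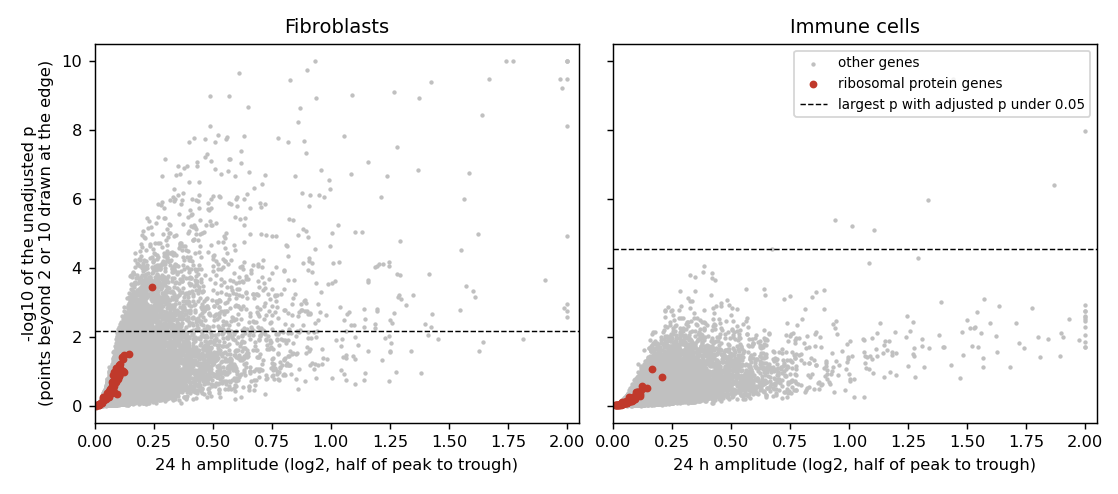
Fitted 24 h amplitude (log2 scale, horizontal axis) and -log10 of the unadjusted edgeR p (vertical axis) of every gene tested in fibroblasts and immune cells, with the ribosomal protein genes in red and a dashed line at the largest p that was called. The members lie at the left edge, and the only one above the line is Rps19bp1 in fibroblasts, with an amplitude of 0.24. Rps19bp1 is a member by name and does not encode a ribosome subunit.

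Rps19bp1 was rhythmic in fibroblasts at a low level. Its 18 fibroblast values ran from 0.145 to 0.248 UMIs per 10000, with a median of 0.207. The ZT14 libraries were at 0.248, 0.240 and 0.247, above every library of ZT2, ZT6 and ZT10, of which the highest was 0.207. Its amplitude was 0.24 ± 0.05 (log2, ± jackknife SE, n = 18 libraries) with a peak at ZT16.8 and an adjusted p of 0.00830. In immune cells the fitted peak was at ZT16.7 and the amplitude 0.21 ± 0.09, with an adjusted p of 0.746. The 3 immune libraries of ZT14 were at 0.256, 0.232 and 0.198, and those of ZT10 at 0.124, 0.223 and 0.112, so the groups overlapped.

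Rpl39, a small protein at the exit tunnel of the large subunit, had an amplitude of 0.12 ± 0.04 in fibroblasts and a peak at ZT13.2. It was called with the replicate block but not in the main fit. Its ZT14 libraries, with the highest mean, were at 27.2, 29.98 and 28.7 UMIs per 10000. Its ZT2 libraries, with the lowest mean, were at 20.2, 26.1 and 25.1. These groups did not overlap, but they were picked as the extremes. Rpl35, also at the exit tunnel, had an amplitude of 0.12 ± 0.04 and an adjusted p of 0.131. Its ZT14 libraries were at 18.1, 16.9 and 15.5 and its ZT2 libraries at 12.4, 15.2 and 14.3. In immune cells the members with the smallest p were Rpl7l1, Rps19bp1, Rpl41 and Rpl22l1, of which Rpl7l1 had an amplitude of 0.17 ± 0.07 and an adjusted p of 0.678.

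Although their amplitudes were small, the fitted peaks lay close together. A peak from ZT10 to before ZT18, a window chosen after seeing the values, was fitted for 77 of 84 members in fibroblasts and for 77 of 83 in immune cells, against 35.8% and 34.5% of all genes. The summed level of the members in fibroblasts was 1362 ± 197 per 10000 at ZT2, its lowest mean, and 1527 ± 97.4 at ZT14, its highest (n = 3 each). In immune cells it was lowest at ZT2, with 1389 ± 86.8, and highest at ZT18, with 1602 ± 195. Between these it was 1550 ± 119 at ZT6, 1417 ± 120 at ZT10 and 1463 ± 321 at ZT14, so the immune means did not rise steadily. The highest and lowest means differed by a factor of 1.12 in fibroblasts and 1.15 in immune cells, while single libraries differed by factors of 1.44 and 1.60. The pooled SD within a time was 139.8 in fibroblasts and 190.5 in immune cells. Members of a library share its cells and its depth, so their common phase is not 77 separate observations.

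No member was called for a difference in rhythm between the cell types. An interaction of cell type and rhythm, fitted in edgeR with a term for each library, passed for 35 of 11444 genes (0.306%) and for 0 of 84 members. The 0 called is near the share of all genes. None had an unadjusted edgeR p under 0.05 (9.17% of all genes), the smallest being 0.139. DESeq2 called 0 members, a fit for which the share of all genes is not given.

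Among genes that build ribosomes or control translation, the counts are to be read against the 13.6% of all genes that were rhythmic in fibroblasts. Of 41 ribosome biogenesis factors, 8 were rhythmic in fibroblasts and 0 in immune cells. Nop16, a nucleolar assembly factor of the large subunit, had an amplitude of 0.52 with a peak at ZT14.1 (adjusted p = 0.00318), and Rrp12, a factor for export of the subunits, had an amplitude of 0.72 with a peak at ZT14.6 (adjusted p = 0.00688), both by edgeR in fibroblasts. Of 23 mTORC1 and TOP regulators tested, 6 were rhythmic in fibroblasts. Eef2k, the kinase that inhibits elongation factor 2, had an amplitude of 0.44 with a peak at ZT10.5, and Pdcd4, an inhibitor of initiation, had an amplitude of 0.29 with a peak at ZT7.22. Of 19 RNA polymerase I genes 2 were rhythmic, Polr2h with an amplitude of 0.35 and Polr1e with 0.40. Of 28 initiation factors 1 was, Pabpc1, the cytosolic poly(A)-binding protein, with an amplitude of 0.18 and a peak at ZT11.7.

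Neither the 7 elongation factors nor Fau and Rack1, both ribosomal proteins outside the name rule, held a rhythmic gene in fibroblasts. By edgeR's unadjusted p under 0.05 there was 1 of the former, Eef2, and 0 of the latter, against 29.5% of all genes. Of the 78 mitochondrial ribosomal proteins, which form the separate ribosome of the mitochondrion, 8 were rhythmic in fibroblasts, a smaller share than the 13.6% of all genes, with Mrpl12 at an amplitude of 0.25 and Mrpl36 at 0.21. Their median amplitude was 0.10. None of these lists held a called gene in immune cells, where 8 were called in all (0.0745% of all genes). At edgeR's unadjusted p under 0.05 there were 2 of 28 initiation factors, 1 of 41 biogenesis factors and 2 of 18 polymerase I genes. There were also 1 of 24 mTORC1 and TOP regulators and 2 of 78 mitochondrial ribosomal proteins. These counts are to be read against 7.76% of all genes.

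The members were lowest in the libraries of the first collection day. The hours in the sample titles put the replicates 1, 2 and 3 of all times on successive days. In fibroblasts the libraries of replicate 1 summed to 1292 ± 97.4 per 10000 (n = 6), those of replicate 2 to 1469 ± 76.0 and those of replicate 3 to 1529 ± 86.4. Replicate 1 was the lowest of its time at 6 of 6 times in fibroblasts and at 5 of 6 in immune cells, where the means were 1313 ± 122, 1512 ± 127 and 1585 ± 178.

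Gene by gene, 38 of 86 members were lowest in replicate 1 at all 6 times in fibroblasts. The share of all genes for this count is not given. In an edgeR fit of replicate number and rhythm, chosen after seeing these values, the median member was 0.15 higher on the second day and 0.22 higher on the third than on the first (log2), against medians of -0.0038 and -0.0063 over all genes. Of 84 members, 81 were higher on the second day and 79 on the third, against 48.6% and 48.3% of all genes. No member was called after adjustment (1 of 12751 genes, 0.00784%), and 65 of 84 had an unadjusted p under 0.05, against 10.3% of all genes. In immune cells 0 genes were called (edgeR, as above), and 56 of 83 members had an unadjusted p under 0.05, against 7.44%, with medians of 0.23 and 0.34. There 81 of 83 members were higher on the second day and 82 on the third, against 50.1% and 48.9% of all genes. Because members of a library share its cells and its depth, the member counts in either cell type are not separate observations. Rps4x was among the members that differed most, with 0.25 and 0.31 in fibroblasts, while Rpl41 was at -0.0027 and -0.0023 (log2).

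Other measures of the libraries also differed. Fibroblasts of replicate 1 had a median of 21920 to 32360 UMIs per cell and those of replicate 3 a median of 18994 to 22621, and replicate 1 had the highest median of its time at 4 of 6 times. The median mitochondrial share in fibroblasts ranged from 2.06% to 2.26% in replicate 1 and from 1.90% to 2.59% in replicate 3. The part of these values in the difference between days was not tested.

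Between the cell types, single members differed in both directions while their median was near 0. By edgeR's quasi-likelihood test on the 36 sums, with the library as a block and Benjamini-Hochberg adjustment over 11444 genes, 22 of 84 members were higher in immune cells (40.9% of all genes were) and 23 were lower (42.7%). Together 45 of 84 were called, against 83.6% of all genes. The median log2 fold change was -0.02 over the members and -0.02 over all genes, and the median absolute log2 fold change was 0.13 and 0.76. Only Rpl39l was past 1 on the log2 scale, which 41.5% of all genes were. Among large subunit symbols 11 were higher and 16 lower of 50 tested, and among small subunit symbols 11 were higher and 7 lower of 34.

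Which immune cells were counted changed these numbers. Of 3 clusters with mostly macrophage markers, the one led by Lyz1 and Ly6c2 is given no class name here. Among its 10 leading genes were 2 monocyte markers, Ly6c2 and Ccr2, and 0 macrophage markers. The Hmox1 and Gdf15 cluster also had 0 macrophage markers there, but 0 monocyte markers. Of all markers detected, the Lyz1 and Ly6c2 cluster had 6 macrophage and 4 monocyte ones, and the Hmox1 and Gdf15 cluster 7 and 2. The clusters led by Fcna and Folr2 and by Hmox1 and Gdf15 are the macrophages meant below, a choice made after seeing the data. With them as the immune cells, 6 members were higher than in fibroblasts (40% of all genes) and 70 lower (42%). The median log2 fold change was -0.48. The higher ones were Rps29, Rps9, Rps27rt, Rpl36al, Rplp1 and Rpl7l1. Past 1 on the log2 scale were Rpl39l, Rpl22l1, Rplp0, Rps2, Rpl13 and Rpl15, against 39.6% of all genes. All 23 members lower in immune cells were also lower in these macrophages, and of the 22 higher ones 6 were also higher, 7 were not called and 9 were lower. These macrophages are part of the immune cells and were set against the same fibroblasts, so the comparisons are not independent. Shares of all genes for this overlap are not given. With the Lyz1 and Ly6c2 cluster included, 14 members were higher (39.8%) and 59 lower (43.3%), with a median of -0.21. Scaled to the member UMIs alone, 22 were higher (39.1%) and 36 lower (42.7%), or 58 called in all (81.8%), and 1 was past 1 on the log2 scale (41.6%). Under both scalings 44 members were called with the same sign.

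The largest rise in immune cells was that of Rps29. Its fibroblast values were between 34.6 and 49.6 UMIs per 10000 (median 43.4) and its immune values between 55.4 and 87.1 (median 79.8). The immune libraries were all above the fibroblast libraries, and the log2 fold change was 0.85 ± 0.04 (SE, edgeR adjusted p = 3.87e-15). With macrophages alone it was 0.84 ± 0.04. Rps29 lies on chromosome 12 (69157722 to 69159186, mm10).

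Rps9, a small subunit protein needed for decoding accuracy (chromosome 7, 3703993 to 3706897), was between 13.1 and 19.5 UMIs per 10000 in fibroblasts and between 20.6 and 34.2 in immune cells. These ranges did not overlap either, and its log2 fold change was 0.71 ± 0.05. With macrophages alone it was 0.36 ± 0.04. Rps27rt had 0.58 ± 0.05, with the reservation on Rps27 given above. Rpl36al, whose product is nearly identical to that of Rpl36a, was at 3.92 ± 0.440 UMIs per 10000 in fibroblasts and 5.61 ± 0.716 in immune cells, and was higher in immune cells in 18 of 18 libraries.

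Transcripts for the proteins of the stalk, the lateral arm of the large subunit that recruits elongation factors, went in opposite directions. Rplp0, its base (chromosome 5, 115559467 to 115563727), was between 17.6 and 25.2 UMIs per 10000 in fibroblasts and between 11.2 and 21.2 in immune cells. The ranges overlapped, but 17 of 18 libraries had less in immune cells, and the log2 fold change was -0.48 ± 0.07 (edgeR adjusted p = 3.27e-07). Rplp2 was between 11.1 and 16.1 in fibroblasts and between 15.9 and 21.95 in immune cells, higher in 18 of 18 libraries, with 0.46 ± 0.05. Rplp1 rose less, by 0.26 ± 0.05, and was higher in 17 of 18 libraries. With macrophages alone the log2 fold changes were -1.38 ± 0.05 for Rplp0, -0.0053 ± 0.04 for Rplp2, which was then not called, and 0.26 ± 0.04 for Rplp1.

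Rpl39l fell most. Its 18 fibroblast values were between 0.233 and 0.404 UMIs per 10000 and its immune values between 0 and 0.0819, without overlap. The immune cells held 98 Rpl39l UMIs in all, and 2.07% of them had such a UMI, against 29.9% of fibroblasts (medians of 11039 and 22289 UMIs per cell). The log2 fold change was -3.72 ± 0.17. Rpl22l1, a paralog of the RNA-binding protein Rpl22 (chromosome 3, 28805436 to 28807424), was at 5.08 ± 0.527 UMIs per 10000 in fibroblasts and 2.76 ± 0.475 in immune cells, with a log2 fold change of -0.89 ± 0.06 and no overlap.

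Rps20, Rps2 and Rpl13 were also lower in immune cells in 18 of 18 libraries. Rps20, a small subunit head protein, was at 26.2 ± 2.58 UMIs per 10000 in fibroblasts and 18.9 ± 2.42 in immune cells. Rps2, at the entry of the message channel, was at 16.4 ± 2.053 and 11.9 ± 1.67, and Rpl13 at 35.3 ± 4.01 and 26.4 ± 4.28. The log2 fold changes were -0.47 ± 0.05, -0.47 ± 0.06 and -0.43 ± 0.06.

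Members with known roles in signalling or outside the ribosome were mostly near 0 in this comparison. Rps6, the substrate of the S6 kinases, was at 10.4 ± 1.11 UMIs per 10000 in fibroblasts and 10.1 ± 1.48 in immune cells, with a log2 fold change of -0.06 ± 0.05 (edgeR adjusted p = 0.353). Rpl5 and Rpl11 form with 5S RNA the particle that binds MDM2. Rpl5 was lower in immune cells by a log2 fold change of -0.34 ± 0.05 and was so in 17 of 18 libraries, while Rpl11 was at 0.01 ± 0.05. Rpl13a, a member of the complex that silences inflammatory messages, was at 0.06 ± 0.05, and Rpsa, also known as a laminin receptor, at 0.06 ± 0.06. With macrophages alone, Rps6, Rpl11, Rpl13a and Rpsa were lower, with log2 fold changes of -0.61 ± 0.05, -0.52 ± 0.04, -0.30 ± 0.04 and -0.83 ± 0.04.

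The other genes of translation also split. Fau, which encodes a small subunit protein fused to a ubiquitin-like protein, was at 19.0 ± 2.30 UMIs per 10000 in fibroblasts and 38.3 ± 6.34 in immune cells, a log2 fold change of 1.01 ± 0.05 by edgeR. Rack1, a scaffold on the small subunit, was also higher in immune cells, with 0.18 ± 0.05. Of 7 elongation factors 5 were lower and 1 was higher in immune cells. Eef1b2, an exchange factor for elongation factor 1A, had -0.48 ± 0.06, and Eif5a was the higher one, with 0.35 ± 0.05. Against 40.9% of all genes higher and 42.7% lower, 19 of 41 biogenesis factors were higher and 6 lower, of 28 initiation factors 12 and 4, of 19 polymerase I genes 8 and 8, of 24 mTORC1 and TOP regulators 10 and 11, and of 78 mitochondrial ribosomal proteins 27 and 27.

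Inside the immune class the summed level of the members varied widely. Clusters were made from the same cells, so these values are a description, with libraries of at least 10 cells behind each range. The 273 lymphocytes (T cells and natural killer or innate lymphocytes) were at 2460.45 members per 10000 UMIs, with libraries from 2228 to 2984. The 290 monocyte or dendritic cells led by Il1b and Cd209a were at 2372, from 1932 to 2726. The 695 immune cells led by Lyz1, Ly6c2 and Ear2 were at 1687, from 1344 to 2008, and 30.1% of them came from 1 library. The 1476 macrophages led by Fcna and Folr2 were at 1141, from 954 to 1323, and the 375 led by Hmox1 and Gdf15 at 927, from 805 to 1112. Mast cells, 54 in all, were at 626, and the 149 neutrophils at 327, with 61.7% of the neutrophils from 1 library.

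Lymphocytes thus had the highest level of these clusters and neutrophils the lowest, and the libraries of neither macrophage cluster overlapped with those of lymphocytes. The macrophages and the Lyz1 and Ly6c2 cluster together made up 66.9% to 91.5% of a library's immune UMIs, lymphocytes 0.978% to 9.44% and the monocyte or dendritic cluster 3.94% to 23.5%. ZT18 replicate 3, the highest immune library, had the 23.5%, and ZT14 replicate 1, the lowest, had the 11.2% of neutrophil UMIs named above. The macrophages summed to 1108 ± 97.3 per 10000 (n = 18), from 954 to 1294, and were below the fibroblasts of their library in 18 of 18, with a mean difference of -322 ± 88.7. In them, replicate 1 was lowest at 6 of 6 times. With the Lyz1 and Ly6c2 cluster included, the sum was 1288 ± 115 and was below fibroblasts in 16 of 18 libraries.

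**Figure D3:**
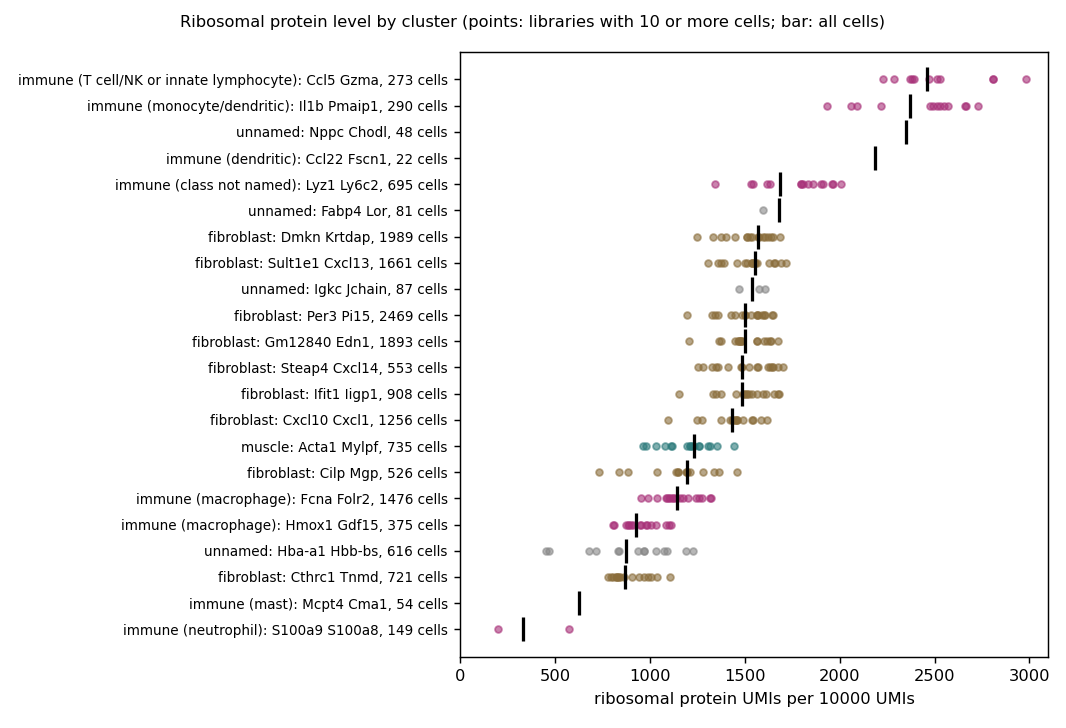
Summed ribosomal protein UMIs per 10000 UMIs (horizontal axis, from 0) in each cluster, named by cell type, leading genes and number of cells. Points are libraries with at least 10 cells and the bar is the value over all cells; immune clusters span 327 in neutrophils to 2460.45 in lymphocytes, and most fibroblast clusters lie between 1433 and 1567.

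The clusters named as fibroblasts were more uniform. Of 9 fibroblast clusters, 7 were between 1433 and 1567 members per 10000, among them those led by Dmkn and Krtdap (1567), by Sult1e1 and Cxcl13 (1555), by the interferon-induced Ifit1 (1483) and by the inflammatory Cxcl10 and Il6 (1433). The cluster led by Cilp and Mgp was at 1194, and the 721 cells led by Cthrc1 and Tnmd, the tenomodulin gene known from tendon, were at 869. Libraries of the latter ranged from 777 to 1107 and did not overlap with those of the Dmkn cluster, from 1247 to 1686. They did overlap with those of the Cilp cluster, from 728 to 1458, and of the Cxcl10 cluster, from 1095 to 1616. Not among the 9 is a cluster of 616 cells led by Hba-a1 and Hbb-bs, with 8 fibroblast markers detected. It was left unnamed, partly for its low UMIs (median 6503 per cell), and was at 872. In the largest cluster, with 2469 cells led by Per3 and Pi15, replicate 1 was the lowest at all 6 times, as it was in the Sult1e1 cluster and in the Fcna and Folr2 macrophages. Counting times with 3 libraries of at least 10 cells, it was lowest at 3 of 4 in the Cxcl10 cluster, 2 of 4 in the Cthrc1 cluster and 1 of 3 in the Lyz1 and Ly6c2 cluster.

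The mixture of ribosomal protein transcripts also differed between clusters. Rps29 made up a median of 3.06% of the member UMIs in the largest fibroblast cluster (2.75% to 3.21% over 18 libraries). In the Fcna and Folr2 macrophages it made up 7.26% (5.76% to 8.62%) and in the Hmox1 macrophages 6.84% (5.58% to 7.70%). The Lyz1 and Ly6c2 cluster had 4.16% (3.84% to 4.98%), the monocyte or dendritic cluster 3.63% (3.52% to 4.13%), and lymphocytes 3.04% (2.65% to 3.396%), which overlapped with fibroblasts. Rps29 per member UMI was thus high in the Fcna and Hmox1 macrophages and not in lymphocytes.

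As a share of member UMIs, Rplp0 was low where Rps29 was highest. Its median share of member UMIs was 1.50% in the largest fibroblast cluster (1.35% to 1.63%) and 0.750% (0.625% to 1.02%) in the Fcna and Folr2 macrophages. It was 1.31% in the Lyz1 and Ly6c2 cluster and in the monocyte or dendritic cluster, 1.17% in lymphocytes, and 2.30% (1.964% to 2.85%) in muscle cells. Per 10000 UMIs this did not hold, as the monocyte or dendritic cluster had medians of 89.8 for Rps29 and 31.9 for Rplp0. The Fcna and Folr2 macrophages had 86.7 and 8.59. Rpl39l, by contrast, varied among fibroblasts. It was at a median of 0.606 UMIs per 10000 in the Cthrc1 and Tnmd cluster (0.173 to 0.675 over 16 libraries). The median was 0.516 in the Cilp cluster (0.224 to 0.801 over 15 libraries) and 0.209 in the Sult1e1 cluster (0.120 to 0.395). The cluster with the fewest ribosomal protein UMIs among fibroblasts thus had the highest Rpl39l median, but its libraries overlapped with those of the Cilp cluster.

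Paralogs of core members were mostly minor. Rpl22l1 was at 5.08 ± 0.527 UMIs per 10000 in fibroblasts, beside 10.7 ± 1.22 for Rpl22, which had a log2 fold change of 0.09 ± 0.05 between cell types. Rpl36al was at 3.92 ± 0.440 beside 9.83 ± 0.973 for Rpl36a, which was lower in immune cells by a log2 fold change of -0.31 ± 0.05, opposite in sign to Rpl36al. Rps27l, a p53 target, was at 2.35 ± 0.367 beside 26.4 ± 2.55 for Rps27, and rose in immune cells by 0.29 ± 0.07. Rpl7l1 was at 0.435 ± 0.0542 beside 13.5 ± 1.18 for Rpl7, and these too had opposite signs between cell types (0.17 ± 0.05 and -0.12 ± 0.05). Rpl39l was at 0.317 ± 0.0437 beside 26.4 ± 2.65 for Rpl39, and Rps4x, with no paralog in the matrices, was at 24.9 ± 3.05. Rpl10l, whose expression is known from testis, had 1 UMI in all fibroblasts and 0 in immune cells, beside 18.3 ± 2.28 UMIs per 10000 for Rpl10.

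Rpl3l was the exception, and its place was muscle. Rpl3 and Rpl3l encode alternative forms of a protein near the peptidyl transferase centre, of which Rpl3l is known from heart and skeletal muscle. Fibroblasts were at 7.88 to 11.6 Rpl3 UMIs per 10000 and 0 to 0.00503 Rpl3l UMIs per 10000 over 18 libraries, and immune cells at 7.86 to 13.6 and 0 to 0.0395. In the 17 libraries with at least 10 muscle cells, Rpl3l was between 6.09 and 9.14 (median 7.11) and Rpl3 between 0 and 2.10 (median 0.184). The ranges of muscle cells and of the other types did not overlap for either gene. A Rpl3l UMI was found in 95.5% of the 735 muscle cells, in 0.234% of fibroblasts and in 0.690% of immune cells, and a Rpl3 UMI in 14.3%, 99.3% and 88.7%. The median depth was 6601 UMIs per muscle cell.

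**Figure D4:**
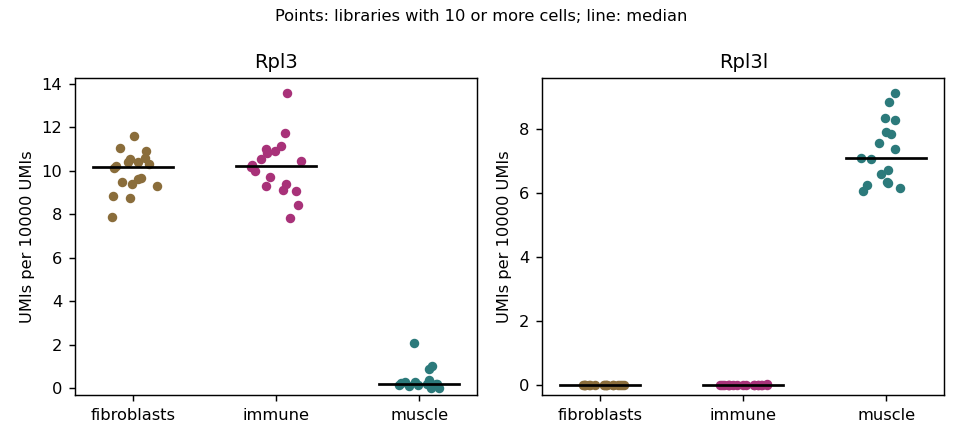
UMIs of Rpl3 and Rpl3l per 10000 UMIs (vertical axes, from 0) in fibroblasts, immune cells and muscle cells. Each point is a library with at least 10 cells of the type and the line is their median; Rpl3l is between 6.09 and 9.14 in muscle cells and at most 0.0395 in the other types.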

How the data were processed

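The deposited matrices hold UMI counts per gene and barcode, which the authors made with Cell Ranger 3.1.0 on mm10 and left without normalization. As in the study, cells with 850 to 7800 genes and under 13% mitochondrial UMIs were kept. They were clustered (scanpy 1.11.5, 2000 variable genes without the members, 30 components, 15 neighbours, Leiden resolution 0.8) and named from marker genes, where 3 detected markers were needed. The naming rule was revised after clusters had been seen, the study's own labels were not used, and doublets were kept, with mixed-marker cells left out as an alternative. The members and lists were chosen with earlier results of these data known.

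Counts were summed per library and cell type and tested with edgeR 4.0.16 (TMM, filterByExpr, quasi-likelihood) in R 4.3.3. Alternatives were DESeq2 1.42.0, JTK_Cycle written anew (periods of 20, 24 and 28 h), other scalings, filters and cell type calls, a block for the replicate number, and leaving out each library. Levels are UMIs per 10000 UMIs of the sum. The titles' hours make the replicate number the day of collection. Same-numbered libraries of different times had a median correlation of deviations of 0.0754 in fibroblasts, from -0.289 to 0.414 over 45 pairs. Genes named are those with the 4 smallest rhythm p or called, the 6 largest and 6 smallest called differences between cell types, the 5 highest and 5 lowest levels, the P proteins, Rpsa, Rps6, Rpl5, Rpl11, Rpl13a, paralog pairs, and up to 2 genes per list. Some genes that this rule takes in are not reported here. Others, such as Rpl18, were named after their values were seen. Nothing in the labels says that a mouse gave more than 1 library. Reads shared with pseudogenes or paralogs may have been split or lost in the counting, which was not tested. Positions and promoters are from GENCODE M21 and RefSeq (GRCm38, the build of mm10). The fits were tested on simulated data in which 200 genes changed by 0.5 (log2). Of these, 181 were recovered for the fibroblast rhythm, 149 for the immune rhythm and 182 for the cell type, with 6, 9 and 12 false calls. The largest member amplitudes were 0.24 in fibroblasts and 0.21 in immune cells. Changes of that size were not simulated.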

Additional observations from a re-analysis of the deposited data

Results flagged for a closer look

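Rpl3l was at 7.34 UMIs per 10000 over all muscle cells, which took no part in the comparisons of fibroblasts and immune cells. It is listed here because this signal lies in cells outside those comparisons and above the level in both types, where it was 0.00107 and 0.00711 per 10000.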

How the results depend on the processing

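The members named for the largest differences between cell types kept their sign and their call under every alternative run, the 18 without 1 library included, except Rplp2, at -0.0053 (log2) with macrophage clusters not led by monocyte genes as immune cells. The number of members rhythmic in fibroblasts was 1, and 3 with the replicate block, 0 with member UMIs as library size and 1 to 2 without single libraries. Shares of all genes are not given for the rhythm fits without single libraries. The block changed no call in immune cells. With those clusters 6 members were higher and 70 lower than in fibroblasts, the summed level was 1108 per 10000 and its difference from fibroblasts -322, and with the Lyz1 and Ly6c2 cluster added 14, 59, 1288 and -142. The number of lower members was 36 with member UMIs as library size (42.7% of all genes). It was 44 without the filter on low counts, 39 by DESeq2 and 20 to 30 without single libraries, for which shares of all genes are not given. The higher ones were 20 to 24. The mean difference in the summed level was -2.05 without neutrophils and lymphocytes and -121 as a mean over cells, and 22.7 to 60.0 without single libraries. The cause of these shifts was not tested. All other values of the counts and summed levels stayed within 1.5 times or 1 SD of those reported. The fewest UMIs were in the immune sums, with 481549, and limit tests of low members such as Rpl39l there.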
